A study of Mus musculus with 36 samples.

Results

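The severe Chd8 hypomorph carries one neo allele and one null allele of Chd8, and its E12.5 neocortex was compared with that of wildtype embryos. The neo allele holds a neomycin cassette between exons 3 and 4 that lowers the full-length transcript, and the null allele lacks exon 3. The comparison rested on 3 neo/- libraries and 3 libraries labelled CTRL (Chd8 +/+), each made from the cortex of a single C57BL/6J embryo, out of 18 libraries in the series, each sequenced in 2 runs that were added together. All genes with enough counts were kept by an expression filter, which left 18810 of the 46603 genes in the count table. The fit also held 3 +/- and 3 neo/neo libraries of the same stage. At E10.5 the series holds 3 libraries of Sox1-Cre; Chd8 f/f conditional knockout (cKO) embryos, in which Cre is expressed in the neuroepithelium, and 3 of controls, each made from pooled embryos. The E12.5 alleles, by contrast, are carried by every tissue of the embryo. The paper took the E10.5 RNA from telencephalic vesicles, with Chd8 f/f embryos as controls.

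CHD8 is an ATP-dependent chromatin remodeller of the chromodomain helicase family that binds the promoters of many active genes. It is known as a repressor of p53 and beta-catenin target genes, and loss-of-function mutations in the human gene are among the best established risk factors for autism. In the cortex at E12.5 most cells are dividing radial glia and the first neurons have just been born.

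Library totals lay between 42782134 and 50452472 counts in +/+ and between 45696702 and 55686466 in neo/-. The embryos differed in sex. Xist, the RNA of the inactive X chromosome, stood at 2043 CPM (counts per 1000000 counts of the scaled library) in +/+ replicate 3 and at 1.46 to 2.40 CPM in the other 5 libraries, so that the only Xist-positive library of the comparison was a wildtype. The cortical label fitted those of its markers that are shown here. Another of them, Bcl11b, differed more between the groups and is given below with the neuron genes. Neurod6, also a neuron marker, was not called and had log2 changes from -0.29 to 0.038 with 1 library left out. Not all markers of the label are shown. Emx2, a transcription factor of the dorsal telencephalon, stood at 126 CPM in neo/- and 119 in +/+, Pax6 of radial glia at 169 and 155, Eomes of intermediate progenitors at 161 and 156 and Tbr1 of early neurons at 220 and 226, none of which passed the test. Several marker lists of other cells and regions did not overlap between the groups. The summed level of the 15 tested erythroid genes was 4698, 7312 and 6029 CPM in neo/- and 3752, 3338 and 4075 CPM in +/+, with no overlap. Of the 15, 6 were called higher (40%, where 5.48% of all genes were), at a median change of 0.75 on the log2 scale. This count was 0 with sex as a covariate, 0 after trends with gene length and GC content were removed (median then 0.71) and 0 without any 1 of 5 of the 6 libraries. Markers of the dorsal midline and choroid plexus summed to 530 to 572 CPM in neo/- and 385 to 517 in +/+, with 15 of 20 higher in value. Of the 20, 0 were called higher and 1 lower, Wnt5a at a log2 change of -0.24. That call was lost with any 1 library left out. Markers of the ventral telencephalon and interneurons summed to 1037 to 1252 CPM against 1287 to 1315, with 21 of 24 lower in value and 1 called. The 7 eye field genes summed to 26.5 to 28.1 CPM against 29.9 to 34.6, with 0 called. Endothelial genes were higher in value for 16 of 18, with 1 called, and their sums of 438 to 484 and 432 to 442 CPM overlapped. The part of blood and of the dissected region in the results was not tested.

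Chd8 (ENSMUSG00000053754, chromosome 14, 52198151 to 52257723, GRCm38) was read at 158, 147 and 142 CPM in the neo/- libraries and at 237, 235 and 240 CPM in the +/+ libraries. All 3 neo/- values lay below all +/+ values. The fall was 0.67 on the log2 scale (SE 0.04, adjusted p = 8.59e-07 by edgeR's quasi-likelihood test with Benjamini-Hochberg adjustment), which leaves a fold of 0.629. Counts were taken over the whole gene, so transcripts that lack exon 3 or splice into the cassette still add to this level. Among the other genotypes Chd8 stood at 167 ± 3.04 CPM in +/- and at 209 ± 5.64 CPM in neo/neo (SD, n = 3 each). The neo/- libraries were also below both of these in direct tests, by -0.16 on the log2 scale against +/- (adjusted p = 0.042, edgeR) and by -0.49 against neo/neo (adjusted p = 0.000239, edgeR). Of 14 other tested genes with a symbol within 500 kb of Chd8, 0 were called by edgeR, with 4 at an unadjusted p under 0.05. Nearest to the threshold was Mettl3, an RNA methyltransferase, at 40.9 CPM in neo/- and 46.0 in +/+.

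In all, 2158 genes were called at an adjusted p under 0.05, which is 11.5% of those tested, with 1031 higher (5.48%) and 1127 lower (5.99%) in neo/-. Most changes were small. The median change was 0.29 on the log2 scale among genes called higher and -0.26 among genes called lower, against 0.00 over all genes tested. A change of at least 2-fold was reached by 68 of the genes called higher and 20 of those called lower. The 3 libraries of one group lay wholly above or below the other 3 for 33.3% of all genes tested. The median exon length was 6488 bases among genes called lower and 2670 bases among genes called higher, against 3398 over all genes tested.

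**Figure D1:**
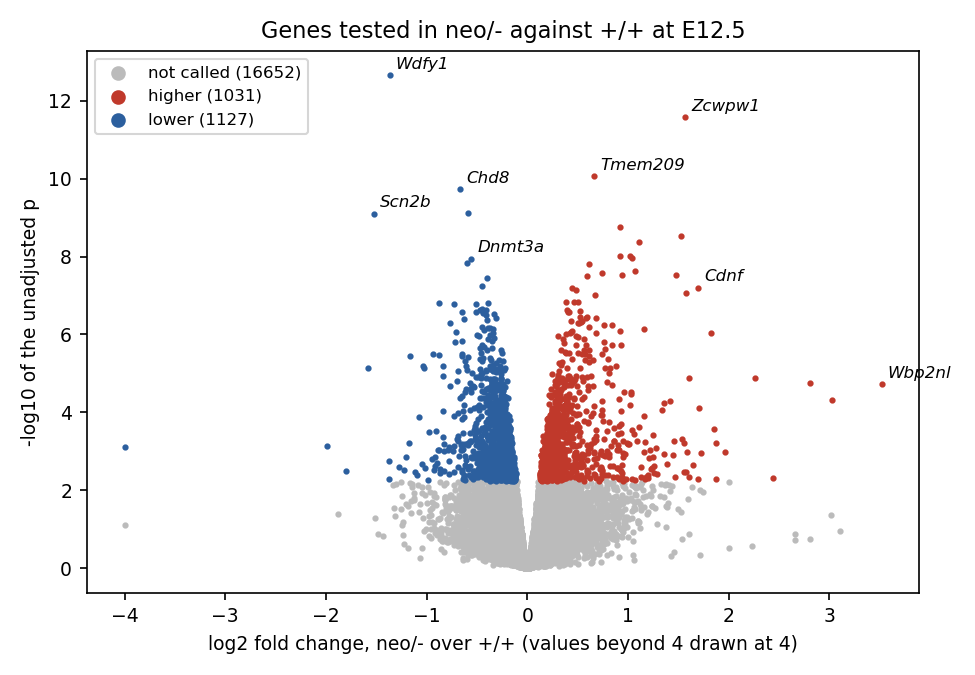
Each point is 1 of the 18810 genes tested, with the log2 fold change of neo/- over +/+ on the x axis and the -log10 of the unadjusted edgeR p on the y axis. The 1031 genes called higher are red, the 1127 called lower are blue, and most lie within 1 unit of 0.

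The genes with the strongest evidence rose or fell in every library. Zcwpw1, a reader of histone methylation best known from meiosis, stood at 29.1, 26.6 and 27.1 CPM in neo/- and at 9.16, 10.1 and 8.74 CPM in +/+. The groups lay far apart, and the rise was 1.56 on the log2 scale (SE 0.07, adjusted p = 2.52e-08, edgeR). Tmem209, a nuclear envelope protein, rose by 0.66 on the log2 scale from 84.0 to 133 CPM (adjusted p = 5.49e-07, edgeR). Xrcc4, which joins broken DNA ends together with ligase IV, stood at 15.6, 15.2 and 14.7 CPM against 6.5, 7.81 and 7.87 CPM. The lowest neo/- library was above the highest wildtype, and the fold was 2.05.

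Cdnf, a secreted neurotrophic factor of the endoplasmic reticulum, stood at 1.93, 1.86 and 1.93 CPM in neo/- and at 0.489, 0.566 and 0.702 CPM in +/+. The 3 neo/- values were nearly the same and the fold was 3.25. Crlf2, a cytokine receptor chain, was at 5.55 ± 0.632 CPM against 1.86 ± 0.0260 CPM (SD, n = 3 each), a log2 change of 1.58. Hbb-bh1, an embryonic globin, was at 342, 569 and 444 CPM against 169, 117 and 159 CPM. Hemgn, a nuclear protein of blood precursors, was at 20.5 CPM against 3.76 CPM, and both were called only just (adjusted p = 0.0425 and 0.0437, edgeR).

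Among the genes that fell, Wdfy1, an endosomal adaptor protein, had the smallest p of all. It stood at 14.5, 13.9 and 15.5 CPM in neo/- and at 36.4, 39.0 and 37.8 CPM in +/+, a change of -1.37 on the log2 scale (SE 0.05, adjusted p = 4.2e-09, edgeR). Across the other genotypes it was at 14.3 ± 0.376 CPM in neo/neo and 38.6 ± 0.916 CPM in +/- (SD, n = 3 each). Wdfy1 was thus low in both genotypes that carry the neo allele and near the +/+ level in +/-. In the E10.5 cKO it was not called, at a log2 change of -0.17 (SE 0.09). The E10.5 controls stood at 13.2, 14.5 and 14.6 CPM, near the neo/- level of E12.5. Whether carriers of the neo allele differ at Wdfy1 for a reason other than Chd8 was not tested. Scn2b, a beta subunit of voltage-gated sodium channels, was at 2.53, 2.71 and 2.77 CPM against 7.5, 7.98 and 7.63 CPM. The groups did not overlap, and the fold was 0.348. Sfxn1, the mitochondrial serine carrier, was at 71.1, 73.2 and 71.4 CPM against 105, 108 and 111 CPM. Every neo/- library was lower, by 0.59 on the log2 scale at the mean. Pccb, a subunit of mitochondrial propionyl-CoA carboxylase, fell from 37.3 to 24.7 CPM (adjusted p = 1.95e-05, edgeR).

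**Figure D2:**
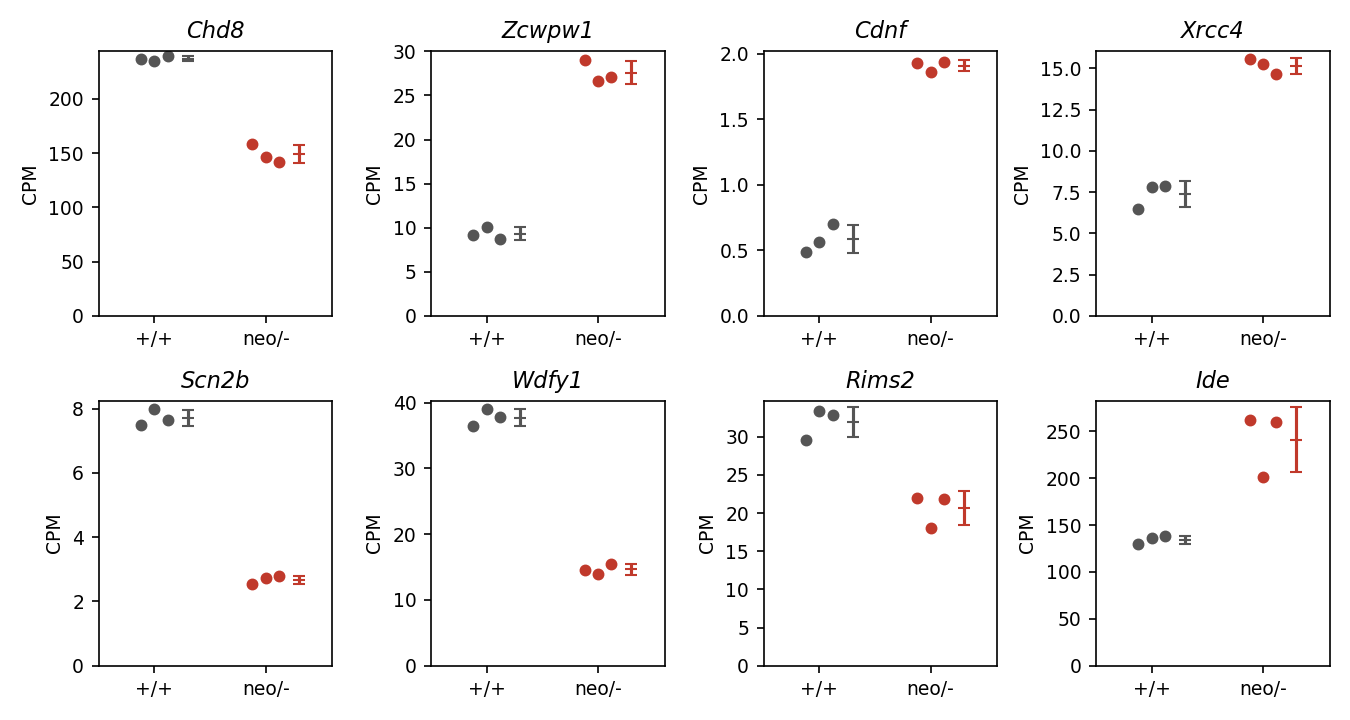
CPM in each library (points), with the mean and SD of 3 libraries (bars), for +/+ in grey and neo/- in red; every y axis starts at 0. The groups do not overlap in any of the 8 panels, and Ide shows the widest spread within neo/-, with 202 CPM in replicate 2 against 262 and 260 in the others.

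The promoters of Chd8 and of the genes with the smallest p in each direction that had an entry are shown as context for these changes (RefSeq, GRCm38.p6, 250 bases before to 50 after the annotated start). The sequences run 5′ to 3′ on the strand of the gene, at chr14:52257711-52258010 (minus) for Chd8, chr5:137787081-137787380 (plus) for Zcwpw1 and chr13:54071595-54071894 (plus) for Sfxn1. Capitals mark a match to the p53 half-site, which was found among these sequences in Chd8 alone.
Chd8: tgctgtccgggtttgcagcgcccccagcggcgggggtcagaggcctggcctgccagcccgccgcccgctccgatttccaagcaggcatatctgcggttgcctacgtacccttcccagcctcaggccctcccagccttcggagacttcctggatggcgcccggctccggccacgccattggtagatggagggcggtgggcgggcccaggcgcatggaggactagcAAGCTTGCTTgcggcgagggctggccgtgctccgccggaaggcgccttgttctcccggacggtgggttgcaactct
Zcwpw1: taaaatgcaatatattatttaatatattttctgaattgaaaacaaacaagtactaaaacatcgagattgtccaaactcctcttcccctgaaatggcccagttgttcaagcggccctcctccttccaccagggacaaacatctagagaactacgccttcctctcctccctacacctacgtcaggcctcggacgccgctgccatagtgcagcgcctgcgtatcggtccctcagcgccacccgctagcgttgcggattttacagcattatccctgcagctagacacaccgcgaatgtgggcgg
Sfxn1: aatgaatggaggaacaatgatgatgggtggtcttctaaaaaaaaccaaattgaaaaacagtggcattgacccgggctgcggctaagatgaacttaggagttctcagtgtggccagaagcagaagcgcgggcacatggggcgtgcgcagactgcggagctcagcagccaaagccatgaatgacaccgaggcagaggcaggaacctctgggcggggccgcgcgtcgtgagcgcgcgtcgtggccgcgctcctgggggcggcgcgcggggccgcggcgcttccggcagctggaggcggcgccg
The E2F words TTTCGCGC, TTTGGCGC and TTCCCGCC, the E-box CACGTG and the p53 half-site were searched on both strands. They occur in 2.96%, 7.15% and 8.36% of all 32851 promoters of that table. Of the genes called higher 76.4% had a promoter there, and of those called lower 76.0%, so a comparison of the shares between these sets is void and was not made.

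Genes of DNA replication were more often called higher than the background of 5.48%. Of 52 tested, 15 were higher and 1 lower, with a median change of 0.12 on the log2 scale beside 0.00 over all genes. Pold2, a subunit of DNA polymerase delta, was at 74.8, 73.2 and 73.6 CPM in neo/- and 50.7, 57.4 and 56.2 CPM in +/+. The groups were apart and the change was 0.43 on the log2 scale (adjusted p = 0.000154, edgeR). Gins4 of the replicative helicase, Chaf1b of the histone chaperone CAF-1 and Rfc2 of the clamp loader rose by 0.34, 0.34 and 0.23 on the log2 scale. Of 39 mitosis genes 5 were higher and 0 lower, among them Cdca8 and Cdc20 at log2 changes of 0.26 and 0.24. The mitosis count was 2 without neo/- replicate 2 and 2 after the length and GC correction. Over all genes 480 and 660 were higher in these fits. Of 27 genes of G1/S control 3 were higher and 2 lower, and 0 were higher without neo/- replicate 2. Cdkn1b, the cyclin-dependent kinase inhibitor p27, was the clearest of these, at 122, 122 and 120 CPM against 160, 156 and 161 CPM. It fell by 0.39 on the log2 scale. Of 63 DNA repair genes 11 were higher and 1 lower, led by Xrcc4 and by Mdc1, a mediator of the damage checkpoint, which rose by 0.54 on the log2 scale. With 1 library left out the replication count ran from 7 to 10, and it was lowest without neo/- replicate 1 or 2. The repair count ran from 5 to 8 and was lowest without neo/- replicate 2.

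Targets of p53 rose in part. Of 36 tested, 8 were called higher (22.2%) and 0 lower, where 5.48% and 5.99% of all genes were. The median change was 0.05 on the log2 scale. Psrc1, a microtubule regulator, was at 89.9, 88.3 and 84.1 CPM against 76.8, 72.9 and 72.1 CPM, so that the groups were apart by a small margin. Pidd1, which links damage signalling to caspase 2, rose by 0.42 and Phlda3, an inhibitor of Akt, by 0.40 on the log2 scale. Cdkn1a, the p21 cell cycle inhibitor, was at 21.4 CPM in neo/- and 21.7 in +/+ and was not called, and Mdm2 was at 98.6 and 89.9 CPM (adjusted p = 0.0659, edgeR). Trp53 itself was at 144 and 149 CPM and was not called. The count of 8 became 3 without any 1 of the neo/- libraries. It was also 3 after trends with gene length and GC content were removed, when 660 of all 18810 genes were higher.

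Some genes of the germline and of meiosis, which are silent or low in the brain, rose. Of 50 listed, 26 passed the filter on low counts. Of these 8 were called higher (30.8%) and 1 lower (3.85%), where 5.48% and 5.99% of all genes were. The list was written with earlier results of these data known and includes genes already seen to rise. Its count and share are therefore a description only. Gpat2, an acyltransferase of germ cells, was at 1.34, 2.36 and 1.68 CPM against 0.489, 0.543 and 0.489 CPM. The lowest neo/- library was above every wildtype and the fold was 3.55. D1Pas1, a testis DEAD-box helicase, was at 0.476, 0.553 and 0.420 CPM against 0, 0.118 and 0.0638 CPM. Wbp2nl, a sperm protein, had at most 3 counts in each +/+ library and was at 0.435 CPM in neo/-, at least 6.78-fold higher than a floor of 3 counts per library. With at most 5 counts in any +/+ library, neither D1Pas1 nor Wbp2nl could have passed the filter on the wildtype libraries alone. Rec8, the meiotic cohesin subunit, went the other way and fell by 0.88 on the log2 scale. The count of genes called higher was 8 after the length and GC trends were removed, when 660 of all 18810 genes were higher. It ran from 6 to 7 with 1 library left out.

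Metabolic gene groups differed in their shares, beside a background over all genes of 5.48% higher and 5.99% lower. Of 28 genes of cholesterol and fatty acid synthesis, 8 were higher (28.6%) and 1 lower, at a median of 0.16 on the log2 scale. Insig1, which retains the SREBP activator in the endoplasmic reticulum, was at 110, 104 and 106 CPM against 85.8, 85.3 and 83.5 CPM. The groups were well apart. Fdft1, which encodes squalene synthase, and Srebf1 rose by 0.23 and 0.27 on the log2 scale, and Pmvk fell by 0.18. Of 77 mitochondrial ribosomal protein genes 14 were higher (18.2%) and 0 lower, led by Mrpl40 and Mrpl17 at log2 changes of 0.34 and 0.30. Of 89 nuclear genes of oxidative phosphorylation 8 were higher (8.99%) and 0 lower. These genes are short, with a median exon length of 1848 and 1485 bases against 3398 over all genes tested, and their counts were 4 and 2 after the length and GC trends were removed. The cholesterol count was then 3, and 660 of all 18810 genes were higher. Of 32 genes of glycolysis and hypoxia 0 were higher and 3 lower (9.4%). Of 33 genes of amino acid stress and transport 2 were higher (6.06%) and 3 lower (9.09%), so both lists lay near the background. With 1 library left out the mitochondrial ribosomal, oxidative phosphorylation and cholesterol counts ran from 4 to 16, from 3 to 20 and from 2 to 5, and each was lowest without neo/- replicate 2, alone or tied.

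Genes of the synapse and of neuronal adhesion were called lower in larger shares than the background of 5.99%. Of 49 genes of synaptic vesicles and exocytosis, 15 were lower and 0 higher, at a median of -0.30 on the log2 scale. Rims2, a scaffold of the presynaptic release site, was at 22, 18.1 and 21.8 CPM against 29.6, 33.3 and 32.8 CPM. Bsn, the active zone protein bassoon, was at 42.0, 47.9 and 50.4 CPM against 69.8, 71.2 and 74.7 CPM. Neither gene overlapped between groups, and both fell by 0.6 or more on the log2 scale (-0.63 and -0.62). Of 40 adhesion genes 12 were lower and 1 higher. Cntnap5c, a contactin-associated protein, was at 0.108, 0.0536 and 0.105 CPM against 0.450, 0.260 and 0.340 CPM, the largest fall among the called genes named here. Its level was low, with at most 5 counts in any neo/- library. Cntnap5c could not have passed the filter on low counts on the neo/- libraries alone. The vesicle count ran from 8 to 12 and the adhesion count from 4 to 10 when 1 library was left out, both lowest without neo/- replicate 1 or 2.

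Ion channels and receptors gave smaller shares. Of 112 voltage-gated channel genes 16 were lower (14.3%) and 2 higher. Cacna1b, the pore of N-type calcium channels, was at 21.9, 20.9 and 21.8 CPM against 35.8, 38.8 and 30.2 CPM. Of the 2 that rose, Kcnn4, a calcium-activated potassium channel that red blood cells also carry, was at 1.88 against 0.819 CPM. Of 63 neurotransmitter receptor genes 5 were lower (7.94%, near the background of 5.99%) and 0 higher. After the length and GC correction 3 were lower, beside 640 of all 18810 genes. In the lowest fit that left out 1 library 3 were lower too. Gabra2, a GABA-A receptor subunit, was at 10.6, 9.46 and 12.2 CPM against 21.7, 23.2 and 20.9 CPM, a fold of 0.490. The channel count ran from 6 to 15 in fits that left out 1 library, lowest without neo/- replicate 1 or 2. In +/- Gabra2 was at 23.1 ± 4.15 CPM (SD, n = 3).

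Genes linked to autism fell more often than the background of 5.99%. Of 54 chromatin regulators so linked, 18 were lower and 0 higher, and of 44 synaptic and signalling genes so linked, 16 were lower and 0 higher, at medians of -0.16 and -0.33 on the log2 scale. Dnmt3a, which writes new DNA methylation, was at 193, 198 and 181 CPM against 283, 267 and 294 CPM. Chd3, a remodeller of the NuRD complex, was at 382, 400 and 398 CPM against 567, 552 and 557 CPM. Both fell in every library, by 0.56 and 0.51 on the log2 scale. Kmt2e and Kdm5b, chromatin regulators linked to histone H3 methylation, fell by 0.41 and 0.34 on the log2 scale. Outside these lists, Tet1, which oxidises methylated DNA, fell by 0.37 on the log2 scale. Ank2 and Scn8a, an ankyrin and a sodium channel, fell by 0.26 and 0.46 on the log2 scale. Of 9 CHD remodellers 5 were lower and 0 higher, one of them Chd8 itself, and Chd7 was at 231 CPM in neo/- and 232 in +/+. The members of these lists are long, with median exon lengths of 11160 and 10410 bases, and 6 and 5 of them were lower after the length and GC trends were removed. Of all 18810 genes 640 were then lower. With 1 library left out the counts ran from 11 to 19 and from 5 to 13, lowest without +/+ replicate 3 or neo/- replicate 1 for the first and without neo/- replicate 2 for the second. Over all genes 531 to 816 were lower in these fits.

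**Figure D3:**
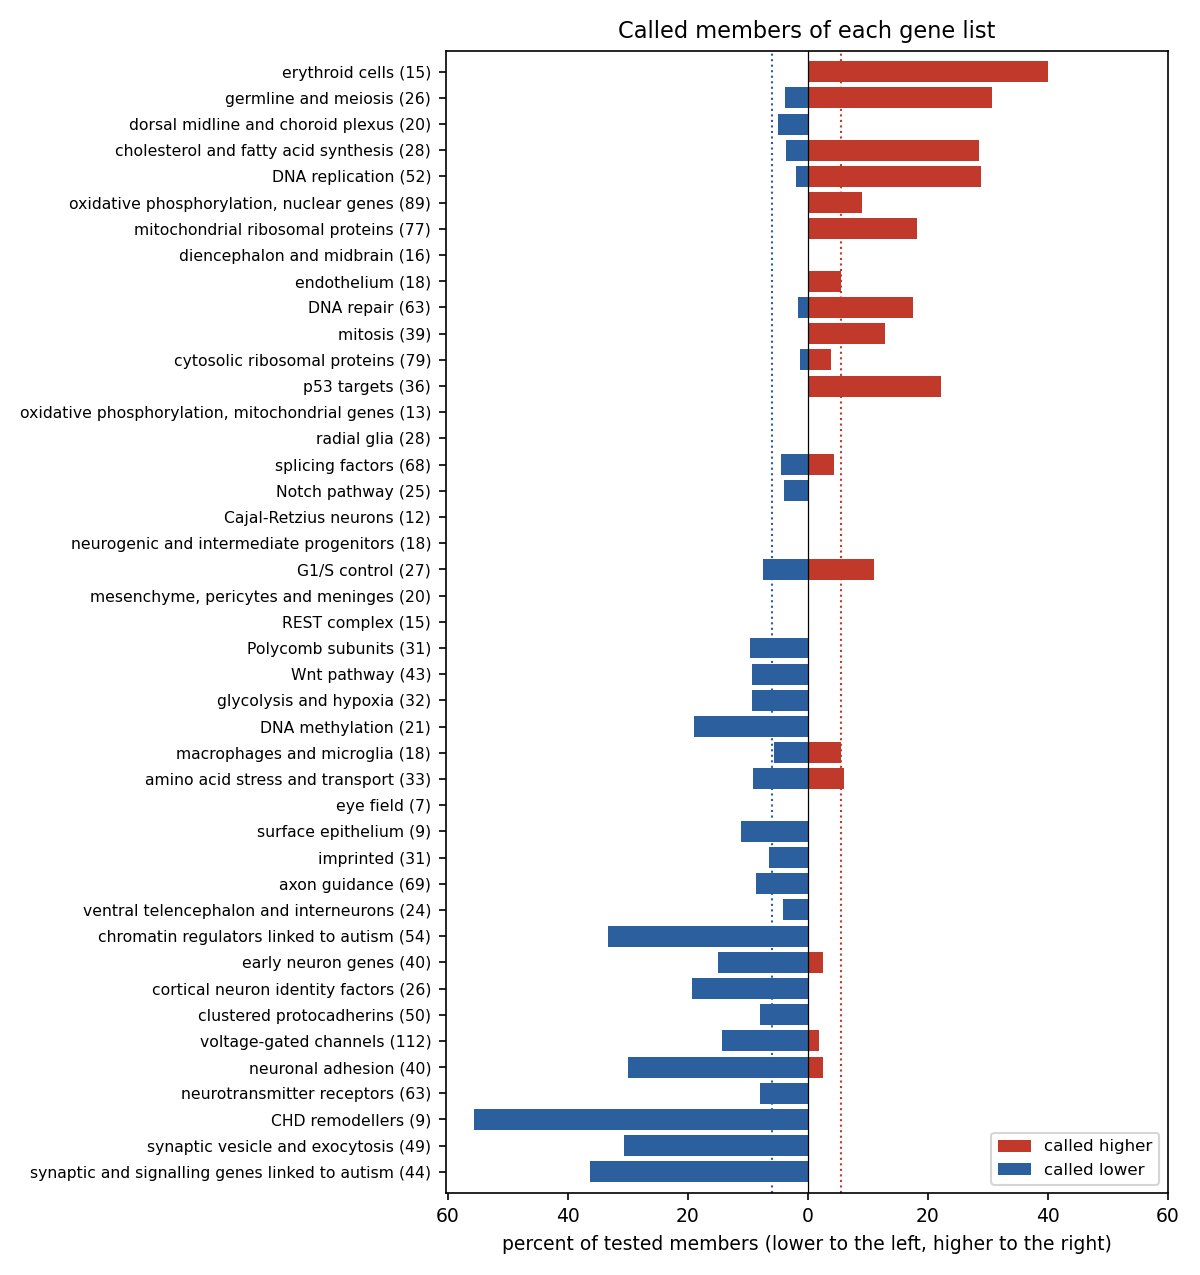
The bars give the percent of tested members of each gene list called higher (red, to the right) and lower (blue, to the left) in neo/-, ordered by median log2 fold change, with the number tested in brackets. Dotted lines mark the background over all genes, 5.48% higher and 5.99% lower, and the synaptic and autism-linked lists reach far past the blue line.

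Genes of early neurons and of cortical neuron identity had median changes of -0.16 and -0.17 on the log2 scale. Of 40 early neuron genes 6 were lower and 1 higher, and 36 were lower in value. Dcx, a microtubule protein of migrating neurons, and Ncam1 fell by 0.34 and 0.32 on the log2 scale. Of 26 cortical neuron identity factors 5 were lower (19.2%) and 0 higher, with Cux1 at 201, 200 and 191 CPM against 258, 248 and 296 CPM. After the length and GC correction, with 640 of 18810 genes lower, the early neuron and identity counts of lower genes were 2 and 1. They dropped as far as 1 (without +/+ replicate 2, neo/- replicate 1 or neo/- replicate 2) and 2 (without +/+ replicate 2 or neo/- replicate 2). Bcl11b was at 138 CPM against 190 CPM and was not called (adjusted p = 0.13, edgeR). Among 28 radial glia genes and 18 genes of intermediate progenitors 0 were called by edgeR in either direction. Of 43 Wnt pathway genes 4 were lower (9.30%, near the background of 5.99%) and 0 higher. The Wnt count was 2 after the length and GC correction and 1 without neo/- replicate 1. Axin2, a direct target of beta-catenin, was at 75.0 CPM in neo/- and 76.1 in +/+.

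The share of genes called depended on gene length. With the tested genes split into 5 equal groups by exon length, in the group with the shortest, up to 1633 bases, 6.38% were higher and 0.984% lower. In the group with the longest, from 6185 bases, 2.26% were higher and 15.7% lower. The same order held by genomic span, with 1.28% lower in the shortest group and 13.2% in the longest. On the X chromosome 24 genes were higher and 72 lower of 655, so that 14.7% were called where 11.5% of all genes were. Without the Xist-positive wildtype these counts were 10 and 46, while those on all other chromosomes went from 1007 higher and 1055 lower to 579 and 567. With sex as a covariate the X counts were 19 and 66.

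**Figure D4:**
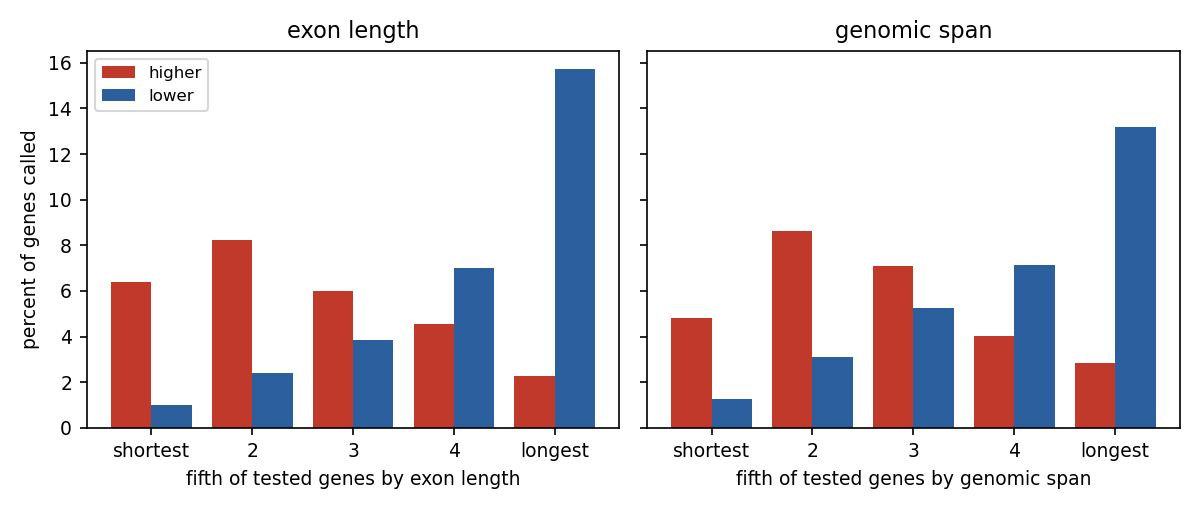
The bars give the percent of genes called higher (red) and lower (blue) in each of 5 equal groups of the tested genes, ordered by exon length on the left and by genomic span on the right. The blue bars climb from 0.984% to 15.7% by exon length, while the red bars are lowest, at 2.26%, among the longest genes.

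The severe hypomorph was also set directly against the mild hypomorph and the heterozygote. Against neo/neo 3 genes were called (0.0159% of those tested; 1585 at an unadjusted p under 0.05): Chd8, Zcwpw1 and Ide. Ide, the insulin-degrading enzyme, was at 262, 202 and 260 CPM in neo/- and at 139 ± 9.84 CPM in neo/neo (SD, n = 3). It was at 130, 136 and 138 CPM in +/+ and at 134 ± 4.02 CPM in +/- (SD, n = 3), so neo/- alone was high. This rise rests on 3 embryos of unequal level, and whether they differ at Ide for a reason other than Chd8 was not tested. Against +/- 1021 genes were called (5.43%), with Wdfy1, Zcwpw1 and Scn2b among the smallest p.

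The E10.5 conditional knockout, whose control libraries are not those used here, allowed the same genes to be read in other embryos. Of 1021 genes called higher in neo/- and tested at both stages, 236 (23.1%) were called higher in the cKO and 17 lower, against 5.91% called higher among all 17703 genes tested at both. Of 1113 called lower in neo/-, 238 (21.4%) were called lower in the cKO and 21 higher, against the same 5.91% called lower. The 236 were 22.6% of the genes called higher in the cKO, and the 238 were 22.8% of those called lower. Of the genes called in neo/- and tested at both stages, 71.2% had the same direction in the cKO. Those above 0 in the cKO were 76.0% of the genes called higher, 33.2% of those called lower and 49.5% of all 17703. The stages also differ in tissue age, dissected region, pooling and the kind of Chd8 loss, and only the cKO carries Cre. These differences cannot be told apart here.

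Single genes moved alike or apart at the stages. Chd8 itself was at 121, 125 and 116 CPM in the cKO and 160, 168 and 184 CPM in its controls, a log2 change of -0.50. Cdnf rose by 1.70 on the log2 scale in neo/- and 1.38 in the cKO, and Vpreb1, a surrogate light chain of B cell precursors, by 1.70 and 2.01. Rims2 had a log2 change of -0.63 in neo/- and -1.23 in the cKO, and Phf19, a Polycomb-like protein, -0.84 and -1.33. Cdkn1a was at a log2 change of -0.02 in neo/- and 3.90 in the cKO, and of the 36 p53 targets 25 were called higher in the cKO, beside 8 in neo/-. Dscaml1, a neuronal adhesion molecule, was lower in neo/- (log2 change of -0.65) and higher in the cKO (1.31). At E12.5 it was at 19.3 CPM in neo/- and 30.2 in +/+. Its E10.5 level was low, at 0.438, 0.394 and 0.490 CPM in the cKO and 0.153, 0.139 and 0.233 in controls. The controls alone could not have passed the filter on low counts, so the opposite direction is a description only. Insig1 was higher in neo/- (0.34) and lower in the cKO (-0.32). Hbb-bh1 was not called at E10.5.

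**Figure D5:**
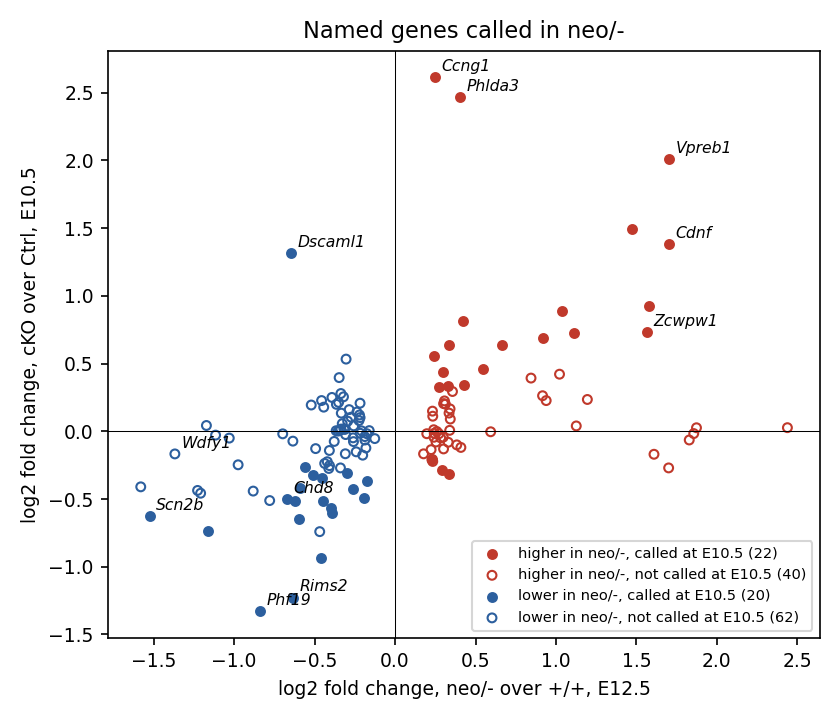
Each point is a named gene called in neo/-, with its log2 fold change in neo/- over +/+ at E12.5 on the x axis and in cKO over Ctrl at E10.5 on the y axis; filled points were also called at E10.5. Cdnf and Vpreb1 rose at both stages, Rims2 and Phf19 fell at both, and Ccng1 and Phlda3 rose far more at E10.5.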

How the data were processed

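RNA was sequenced from the E12.5 cortex, with 3 libraries per group. The authors trimmed reads with Trim Galore 0.4.1, aligned them with TopHat2 2.1.0 and counted fragments per gene with featureCounts 1.5.0 (submitters' processing notes and the study's methods). The deposited counts are not normalized, use Ensembl 82 genes on GRCm38, ignore strand (antisense partners cannot be told apart) and leave out reads that map to several places. The 2 runs of each library were summed. Genes were filtered with filterByExpr, scaled by TMM and fitted over 12 libraries with edgeR 4.0.16 (glmQLFit, glmQLFTest, genotype as the term), with Benjamini-Hochberg adjustment. CPM use the TMM factors. In counts simulated for neo/- against +/+ over 18810 genes, edgeR recovered 133 of 137 genes changed 2-fold with 100 counts or more per library, 18 of 53 with 10 to 100 and 0 of 10 with fewer. Named genes were Chd8, the 12 largest rises and falls and the 8 smallest p in each direction among called genes without overlap and with at least 10 counts, called members of the lists, genes the paper names, genes near Chd8 and those called in the direct contrasts; predicted genes were not named. Neocortex markers, other CHD genes and Xist were added by hand. The members and gene lists were chosen with earlier results of these data known. Alternatives were DESeq2 (R 4.3.3), other scaling, no filter, a replicate block, the 6 libraries alone, either run alone, sex as a covariate, length and GC trends removed, and each library left out. Some items are not reported here.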

Additional observations from a re-analysis of the deposited data

How the results depend on the processing

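Of the 16 alternatives, removing trends with gene length and GC content moved the counts most outside the leave-one-out fits, to 1300 genes called, 660 higher and 640 lower; 1123 of the 2158 calls were kept, and 7 had the opposite sign. With 1 library left out the count ran from 1015 to 1539, with 480 to 849 higher and 531 to 816 lower; without +/+ replicate 3 it was 1202, and without neo/- replicate 1, 2 or 3 it was 1052, 1015 or 1190. DESeq2 called 2597, the 6 libraries alone 2687, sex as a covariate 1928, and run 1 or run 2 alone 1572 or 1640. The replicate numbers do not pair the libraries (correlations of same-numbered deviations 0.058, -0.059 and -0.027), and with the replicate block 1721 were called. All 16 alternatives kept 564 calls. Of 152 called genes on the list of named genes, 64 were called under all 16 and none changed sign; in 461 of 2422 values the call was lost. The 6 erythroid calls were lost (0 called) with sex as a covariate, after the length and GC correction and without 5 of the 6 libraries in turn.

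Values near 0 that were not called changed sign. The length and GC correction gave log2 changes of 0.014 for Axin2 and 0.11 for Chd7. Run 1 alone gave 0.0011 for Cdkn1a, and run 2 alone gave 0.00097 for Chd7, -0.0072 for Arhgef40 and -0.099 for Tmem253. Sex as a covariate gave 0.028 for Chd7, -0.020 for Arhgef40 and 0.015 for Sall2, and no filter gave -0.0060 for Arhgef40. With 1 library left out, log2 changes ran from -0.062 to 0.070 for Arhgef40, from -0.062 to 0.018 for Axin2, from -0.063 to 0.042 for Cdkn1a, from -0.079 to 0.067 for Chd7, from -0.012 to 0.082 for Eomes, from -0.0013 to 0.12 for Hnrnpc, from -0.29 to 0.038 for Neurod6, from -0.088 to 0.040 for Sall2, from -0.0065 to 0.057 for Supt16, from -0.016 to 0.28 for Tmem253 and from -0.11 to 0.017 for Trp53. In the simulation 0 of 10 genes under 10 counts per library and changed 2-fold were recovered, and larger changes were not simulated. Blood content, sex and gene length all differed with genotype or call, so small changes in the genes they touch rest on 3 embryos a group.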
